A study of Schizosaccharomyces pombe with 8 samples.

Results

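The transporter genes abc1, abc2, abc3 and abc4 of fission yeast, Schizosaccharomyces pombe, were followed through a short exposure to nitric oxide, in cells lacking the transcription factor gene pap1 and in wild type cells. They were chosen by name, as a family of vacuolar ABC transporters, and are 4 of the 2896 S. pombe genes that had a named probe set on the Affymetrix yeast array. Each of them had 1 probe set. The abc1 transporter (locus SPAC9E9.12c) is written ybt1 in the array annotation. The symbol abc1 in that annotation belongs to coq8 (SPBC2D10.18), a gene of coenzyme Q synthesis, and its probe set was not used for abc1. The loci of the other members are SPAC3F10.11c for abc2, SPBC359.05 for abc3 and SPAC30.04c for abc4.

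ABC transporters are membrane pumps that use ATP to move compounds across a membrane. The fungal vacuole is a store and a disposal site, and ABC transporters in its membrane carry glutathione conjugates, metal-binding peptides and metals. Abc2 moves glutathione conjugates and phytochelatins, the peptides that bind cadmium, into the vacuole of S. pombe. Abc3 is a vacuolar transporter whose gene is repressed by the GATA factor Fep1 when iron is plentiful. Abc4 has been described in S. pombe as a vacuolar transporter of glutathione conjugates. The name ybt1 comes from Saccharomyces cerevisiae, where Ybt1 is a vacuolar bile acid transporter. Pap1 is a bZIP factor of S. pombe that turns on genes of the oxidative stress response, pumps for drug efflux among them.

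The 8 arrays fell into 4 groups of 2 arrays, which the labels call biological replicates. The pap1 deletion groups were of strain AV25 (h- pap1::kanMX6), and the wild type groups were of strain 972h-. Treated cells of each strain received the nitric oxide donor detaNONOate at 3 mM for 15 min at 30 °C, and control cells received the same compound already decomposed. All 4 groups had been grown in rich medium and moved into phosphate-buffered saline, and sets of treated and control cells were drawn from 1 flask. Whether replicates 1 and 2 of a group came from separate cultures is not given in the sources used here, and if they did not, the p-values measure technical spread. Labelled RNA was made from the 3' end of transcripts. The study asked which responses to nitric oxide depend on Pap1.

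The values are log2 expression per probe set after RMA, the summary method of the submitters, and a level is compared only with other levels of the same probe set. A gene was said to rise or fall where limma gave a Benjamini-Hochberg adjusted p under 0.05 over all 2896 genes, with the spread estimated from all 8 arrays. With 2 arrays per group, precision is limited by the number of arrays. In these bulk extracts a change in the message per cell and a change in the share of cells that carry it cannot be told apart. The pap1 probe set read 2.14 to 2.35 in the 4 pap1 deletion arrays and 9.90 to 10.11 in the 4 wild type arrays, so the strain labels and the pap1 signal went together. The balance of signal along control transcripts differed between treated and control arrays. An index of it was taken as the 3' log2 value less the 5' one, as a median over 7 control transcripts of S. pombe. It was 2.64 ± 0.12 in treated and 1.65 ± 0.01 in control pap1 deletion arrays (mean ± SD, n = 2), and 3.35 ± 0.02 in treated and 1.34 ± 0.08 in control wild type arrays. It was thus highest in the treated wild type arrays.

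**Figure D1:**
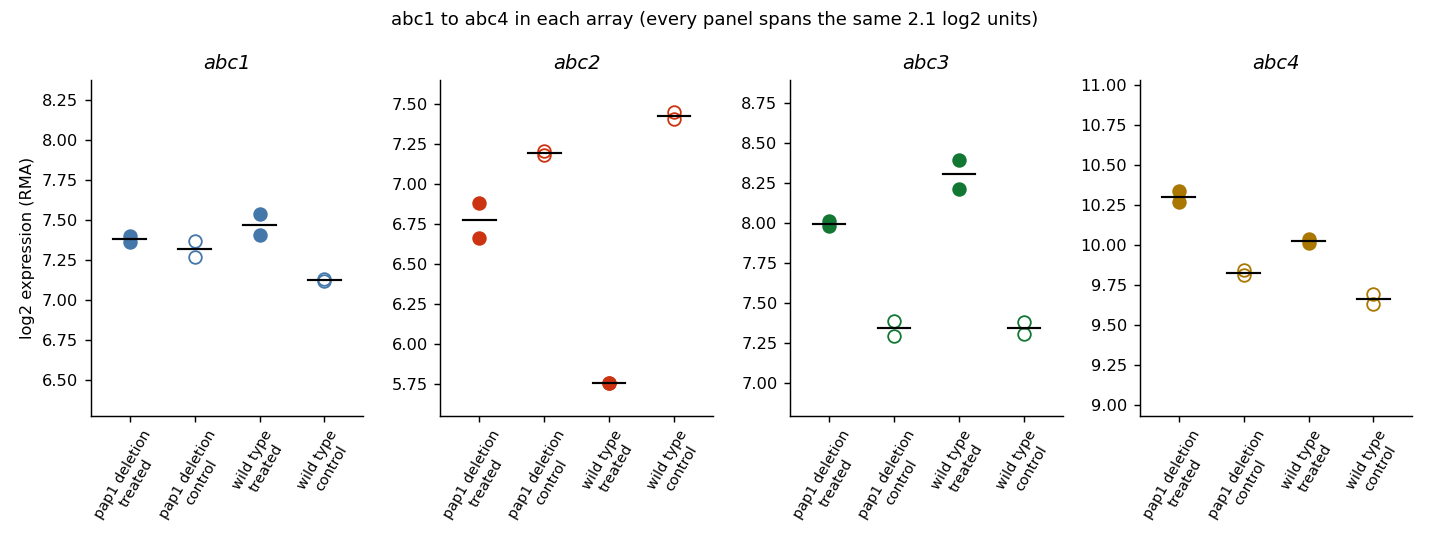
Log2 expression of each member in every array, with treated groups as filled and control groups as open points, a bar at the mean of 2 arrays, and the same span of log2 units in every panel. In treated wild type arrays abc2 stood near 5.76, below all other groups, while abc3 and abc4 stood above their controls in both strains.

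In cells without pap1, detaNONOate was followed by higher abc3 and abc4 messages and a lower abc2 message, and abc1 did not pass the test. Of the 4 members, 2 rose, 1 fell and 1 did not pass. This count has to be read against the background of the comparison, in which 62.4% of all genes passed, 35.5% higher and 26.9% lower. The member median was 0.27 and that of all genes 0.05.

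The conjugate and phytochelatin transporter gene abc2 read 6.66 and 6.88 in treated pap1 deletion arrays, against 7.21 and 7.19 in control pap1 deletion arrays. The treated arrays were both the lower ones. The fall was 1.34-fold (-0.42 ± 0.07 on the log2 scale with limma's SE, as for all such values, adjusted p = 0.00163), and 392 genes changed by this value or a lower one. The treated arrays differed from each other more for abc2 than for the other 3 members, with an SD of 0.16 against 0.02 to 0.05.

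The iron-regulated gene abc3 read 7.98 and 8.01 in treated pap1 deletion arrays, against 7.39 and 7.30 in control pap1 deletion arrays. The groups did not overlap, as in 83.1% of all genes in this strain. It rose 1.58-fold (0.66 ± 0.07, adjusted p = 0.000191). In all 122 genes changed by this value or a higher one, abc3 included, in this strain.

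The second conjugate transporter gene, abc4, read 10.27 and 10.34 in treated pap1 deletion arrays, against 9.84 and 9.81 in control pap1 deletion arrays. It rose 1.39-fold (0.48 ± 0.05, adjusted p = 0.000122), to the highest values of this gene in the 8 arrays. For abc1, the gene named ybt1 on the array, the values were 7.37 and 7.40 in treated pap1 deletion arrays and 7.37 and 7.27 in control pap1 deletion arrays. The abc1 groups overlapped, and the difference was 0.07 ± 0.06 (adjusted p = 0.361), with a 95% interval of -0.07 to 0.20.

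In wild type cells abc2 fell, abc3 rose 1.95-fold, and abc1 and abc4 rose by less. All 4 members passed the test, 3 of them higher and 1 lower, where 80.2% of all genes passed, 40.5% higher and 39.7% lower. The median difference was 0.35 over the 4 members and 0.02 over all genes.

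Of the members abc2 had the largest change. It read 5.76 and 5.76 in treated wild type arrays, against 7.41 and 7.45 in control wild type arrays. Both treated arrays were low and the groups did not overlap, as in 90.2% of all genes in this comparison. The level was 3.19-fold lower after treatment. On the log2 scale this is -1.67 ± 0.07 (n = 2 arrays in each group, adjusted p = 6.6e-07). Of the 2896 genes, 132 changed by this value or a lower one, abc2 included.

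The abc3 message moved the other way. It read 8.40 and 8.21 in treated wild type arrays, against 7.31 and 7.38 in control wild type arrays, and both treated arrays were the higher ones. The rise was 1.95-fold (0.96 ± 0.07, adjusted p = 9.02e-06), and 173 genes changed by this value or a higher one, abc3 included.

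The abc4 message read 10.01 and 10.04 in treated wild type arrays, against 9.69 and 9.63 in control wild type arrays. The groups lay apart, with a rise of 1.29-fold (0.36 ± 0.05, adjusted p = 0.000186). The abc1 message read 7.54 and 7.40 in treated wild type arrays, against 7.12 and 7.13 in control wild type arrays. It too lay wholly higher after treatment, by 1.27-fold (0.35 ± 0.06, adjusted p = 0.000986). Changes of this size were common: 795 genes changed by at least as much upward as abc4 and 821 as abc1. The gene coq8, which the annotation calls abc1, rose by 0.88 ± 0.06 in the same arrays.

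**Figure D2:**
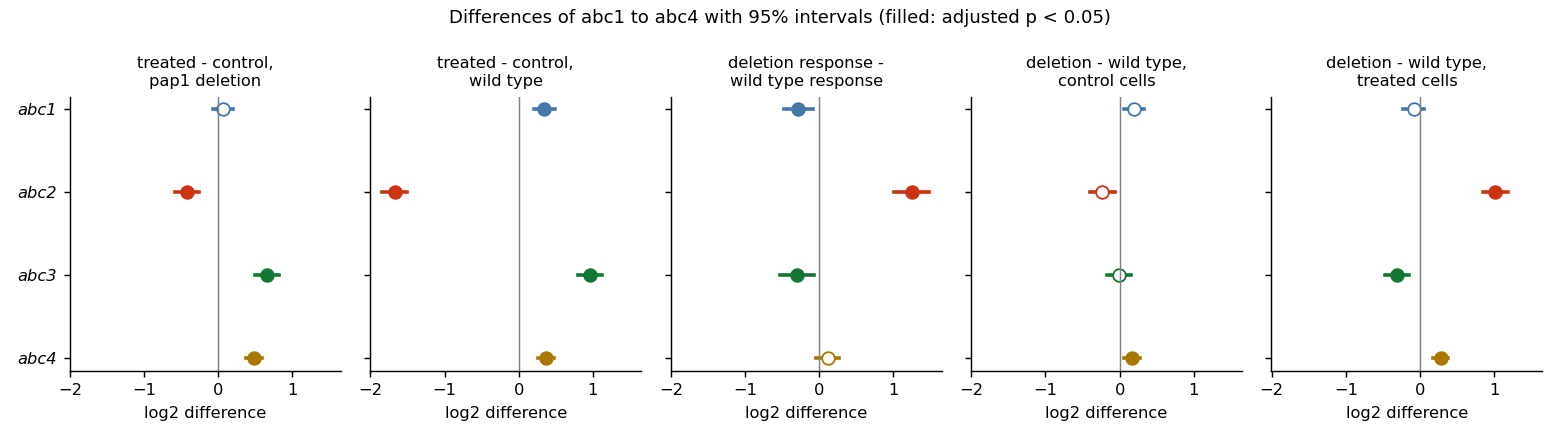
Log2 differences of the members in the 5 comparisons, as points with 95% intervals from limma, filled where the adjusted p was under 0.05. The abc2 difference was -0.42 in the pap1 deletion and -1.67 in wild type, and abc4 alone passed between the strains in control cells.

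The response of abc2 differed most between the strains. The change under detaNONOate was -0.42 in the pap1 deletion and -1.67 in wild type, a difference between the responses of 1.25 ± 0.10 (adjusted p = 7.51e-05). Of the other members, abc1 (-0.28 ± 0.08, adjusted p = 0.0223) and abc3 (-0.30 ± 0.10, adjusted p = 0.0306) changed by less in the deletion than in wild type. The abc4 responses differed by 0.11 ± 0.06 (adjusted p = 0.166), with a 95% interval of -0.04 to 0.26. Thus 3 of 4 members passed, 1 with a positive and 2 with a negative difference, where 59.1% of all genes passed, 33.9% positive and 25.1% negative. Positive calls made up 57.5% of those, 47.3% with centred arrays and 45.4% after a further quantile normalization. The abc1 call was lost without either wild type control array, without pap1 deletion control replicate 1 or without pap1 deletion treated replicate 1 (adjusted p from 0.0584 to 0.08). The abc3 call was lost without any single one of wild type control replicate 1, wild type treated replicate 1, pap1 deletion control replicate 1 and the 2 pap1 deletion treated arrays (adjusted p from 0.0559 to 0.101).

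Over the whole array responses were smaller in the deletion. Across the 2896 genes the slope of the deletion response on the wild type response, through 0, was 0.42, and 77.1% of genes had the same sign in both. The 2 responses share no arrays, though genes are not independent replicates. The deletion response divided by the wild type response was 0.25 for abc2, below that slope, and 0.68 for abc3 and 1.31 for abc4, above it. No SE was set on these ratios. The abc4 responses did not differ past the threshold, and their difference was -0.0674 after quantile normalization, turned in sign. No ratio is read for abc1, whose change in the deletion did not pass the test and lay between 0.015 and 0.12 when single arrays were left out. For the 519 genes that changed at least 2-fold in wild type, the median ratio was 0.40. These genes were picked by their wild type response, the divisor, which by itself can lower the ratio. The reverse choice was not run. The index of signal balance shifted in treated arrays of both strains and more in wild type.

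**Figure D3:**
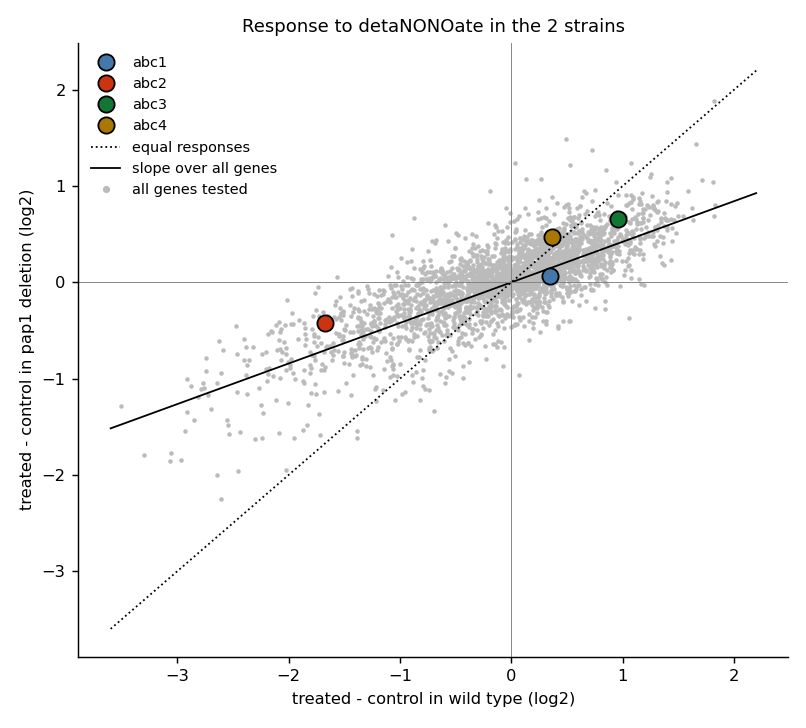
Each gene's difference between treated and control cells in the pap1 deletion (vertical, log2) against that in wild type (horizontal, log2), with the members enlarged, a dotted line of equal responses and a solid line with the slope of 0.42 over all genes. The abc4 point lies above the dotted line, abc3 lies between the lines, and abc2 lies nearer to 0 in the deletion than the solid line gives. The abc4 responses of the strains did not differ past the threshold.

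Between the strains in control cells, the differences of abc1, abc2 and abc4 were small. In size they exceeded the median absolute difference of 0.098 over all genes. The control arrays of these members did not overlap between the strains, as in 69.5% of all genes. The abc4 level was higher in pap1 deletion control arrays than in wild type control arrays, by 0.16 ± 0.05 (adjusted p = 0.0488), and this call was lost when any of the 4 control arrays was left out (adjusted p from 0.116 to 0.229). For abc1 the difference was 0.19 ± 0.06 (adjusted p = 0.0637), and for abc2 it was -0.23 ± 0.07 (adjusted p = 0.0639). For abc3 it was -0.0023 ± 0.07 (adjusted p = 0.985), with means of 7.34 in pap1 deletion control and 7.34 in wild type control arrays and a 95% interval of -0.17 to 0.16. Of the 4 members 1 thus passed, as higher, where 17.4% of all genes passed, 8.22% higher and 9.15% lower. Calls higher made up 47.3% of those, and 57.4% with centred arrays. When each array was centred on its median over these genes, abc1 (0.21, adjusted p = 0.0446) and abc2 (-0.21, adjusted p = 0.0352) passed as well.

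In treated cells the strains stood further apart. The abc2 level was 2.025-fold higher in the treated pap1 deletion than in treated wild type (1.02 ± 0.07, adjusted p = 2.24e-05), and abc4 was higher by 0.28 ± 0.05 (adjusted p = 0.00126). The abc3 level was lower by 0.31 ± 0.07 (adjusted p = 0.00604). For abc1 the difference was -0.09 ± 0.06 (adjusted p = 0.223), with a 95% interval of -0.23 to 0.05, and it passed after a further quantile normalization (-0.16, adjusted p = 0.0266). Of the members 2 were higher and 1 lower, where 65.8% of all genes passed, 39.3% higher and 26.5% lower. Calls higher made up 59.8% of those, and 47.2% after the further quantile normalization.

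The order of the group means therefore differed from member to member. For abc2 the order was treated wild type (5.76), treated deletion (6.77), control deletion (7.20) and control wild type (7.43), and the 2 control groups at the top did not differ beyond the test's threshold. For abc3 the control means of the strains could not be separated, and treated deletion (7.996) and treated wild type (8.30) followed above them. For abc4 the order was control wild type (9.66), control deletion (9.83), treated wild type (10.03) and treated deletion (10.30). The abc1 means ran from 7.13 in control wild type through 7.32 in control deletion and 7.38 in treated deletion to 7.47 in treated wild type, and no neighbours in that order passed the test. Over all 8 arrays the span was 1.70 for abc2, 1.10 for abc3, 0.70 for abc4 and 0.42 for abc1.

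The index of signal balance was higher in every treated array (2.56 or more) than in every control array (1.65 or less) of both strains. Its part in these differences therefore could not be fully told apart from treatment. It was entered as a covariate in 1 further fit only. That fit holds 1 treatment effect for both strains, 1 strain effect and the index, with no separate response per strain, so a difference in response between strains is taken up largely by the index. In it abc4 kept a rise on treatment (0.56 ± 0.11, adjusted p = 0.014). The abc3 effect was 0.37 ± 0.16 (adjusted p = 0.115). The sign turned for abc2 (0.68 ± 0.26, adjusted p = 0.0928) and for abc1 (-0.20 ± 0.13, adjusted p = 0.276), neither past the threshold. Of all genes 28.3% passed for treatment in this fit. For the index 54.7% of all genes passed. Among the members abc2 had the largest slope on it, at -1.15 ± 0.16 per unit (adjusted p = 0.00143). That slope also takes up the abc2 difference in response between the strains. The slopes of abc3 (0.29 ± 0.10, adjusted p = 0.0414) and abc1 (0.27 ± 0.08, adjusted p = 0.0273) passed too, with the same limit. For abc4 the slope was -0.09 ± 0.07 (adjusted p = 0.317). The files hold 1 value per member and array, so the balance along the abc transcripts themselves was not tested.

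**Figure D4:**
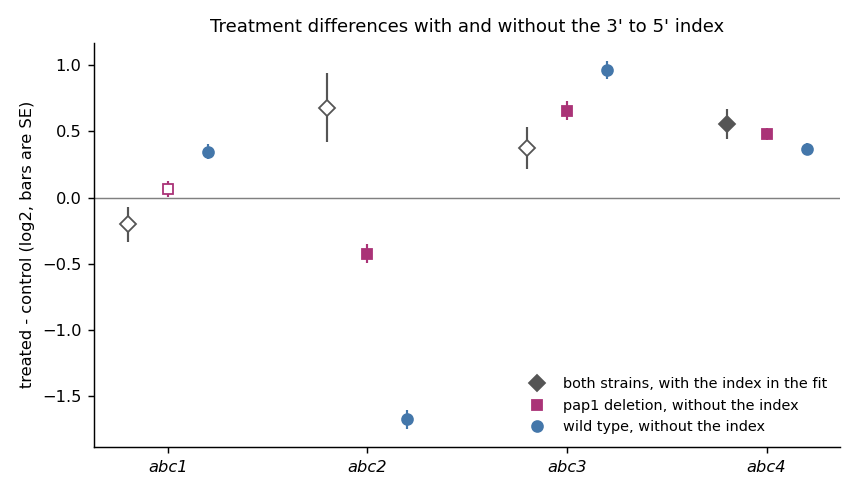
Treatment differences of each member (log2, bars are SE) from the fit with the index, which joins both strains (diamonds), and from the fit without it in the pap1 deletion (squares) and in wild type (circles), filled where the adjusted p was under 0.05. The abc4 difference stayed between 0.36 and 0.56, whereas abc2 stood at 0.68 with the index and at -0.42 and -1.67 without it.

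The genes closest in pattern were found from the root mean square difference between 8 log2 values, after each gene was centred on its own mean. As the 3 smallest values for each member, they lie below the median by choice, so the median gives the scale only. For abc2 they were tim17 (0.06), tim44 (0.07), both of mitochondrial protein import, and the palmitoyltransferase gene erf2 (0.07), where the median over all genes above background was 0.66. For abc3 they were the SUMO-conjugating enzyme gene hus5 (0.06), rpm1 (0.06) and set8 (0.07), with a median of 0.43. For abc4 they were his2 of histidine synthesis (0.04), tfb2 of the factor TFIIH (0.04) and oca3 (0.04), with a median of 0.29. For abc1 they were ric1 (0.03), num1 (0.04), written mcp5 on the array, and rpl4102 (0.04), a ribosomal protein gene with a near-identical paralog, with a median of 0.24. No member was among the 3 closest genes of another. The nearest pair of members was abc1 and abc4, at 0.17, and the farthest was abc2 and abc3, at 1.04.

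Among 11 other ABC proteins measured, the pap1 deletion had 4 that rose, 3 that fell and 4 not past the threshold (median 0.06). Wild type had 4 that rose, 6 that fell and 1 not past the threshold (median -0.17). The shares past the threshold were 63.6% in the deletion, where 62.4% of all genes passed, and 90.9% in wild type, where 80.2% did. The vacuolar cadmium tolerance transporter hmt1, which shares the compartment of the abc members, passed in neither strain (-0.09 ± 0.04 in the deletion, adjusted p = 0.119, and 0.06 ± 0.04 in wild type, adjusted p = 0.266). The efflux pump genes bfr1 (-1.61 ± 0.04 in the deletion and -1.39 ± 0.04 in wild type) and pmd1 (-0.79 ± 0.05 and -1.31 ± 0.05 in the same order) fell in both, as did pdr1 (-0.19 in the deletion and -0.65 in wild type). In size the abc2 fall in wild type exceeded all 11, while in the deletion both bfr1 and pmd1 fell by more than abc2. The M-factor exporter mam1 (0.50 in the deletion and 0.45 in wild type), the mitochondrial transporters atm1 (0.18 and 0.15) and mdl1 (0.33 and 0.61) and the soluble protein caf16 (0.85 and 1.32) rose in both. The translation proteins rli1 (0.02 in the deletion and -0.56 in wild type) and tef3 (0.06 and -0.29), and elf1 (0.12 and -0.17), passed as falls in wild type only, and for all 3 the responses of the strains differed past the threshold.

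**Figure D5:**
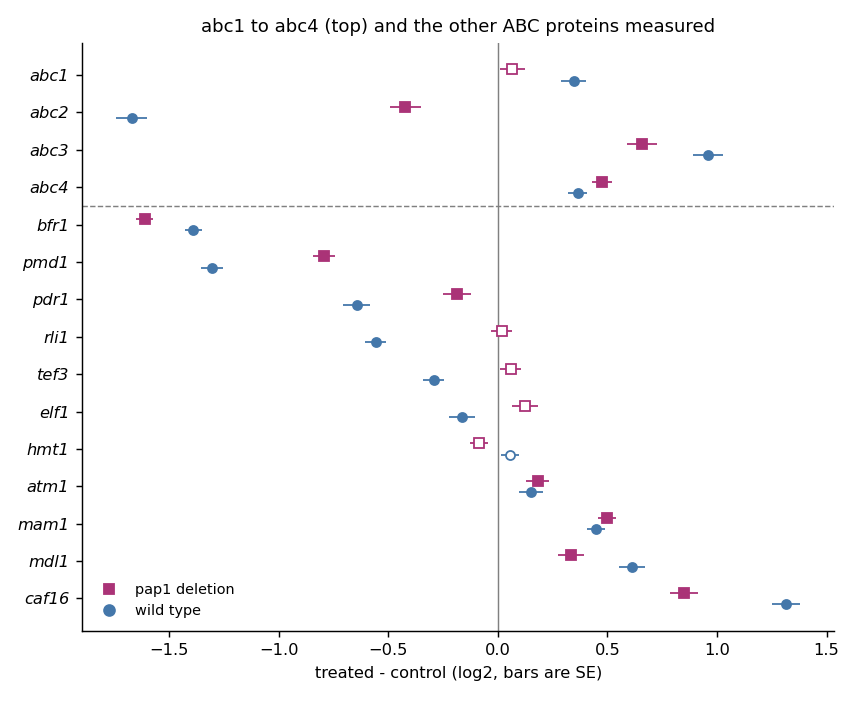
Log2 differences between treated and control cells for the 4 members (above the dashed line) and 11 other ABC proteins, in the pap1 deletion (squares) and in wild type (circles), with SE bars and filled points where the adjusted p was under 0.05. Members and other ABC proteins are found on both sides of 0, with abc2 at -1.67 in wild type the lowest point.

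Genes that make, use or move glutathione were listed because Abc2 and Abc4 carry its conjugates. Of 13 measured genes of glutathione and phytochelatin metabolism, the pap1 deletion had 3 that rose, 5 that fell and 5 not past the threshold (median -0.03). Wild type had 1 that rose, 8 that fell and 4 not past the threshold (median -0.26). The shares past the threshold, 61.5% in the deletion and 69.2% in wild type, stood beside the same 62.4% and 80.2% of all genes. The glutathione transferase gst3 fell in both (-1.49 ± 0.05 in the deletion and -1.83 ± 0.05 in wild type), beside a rise of abc4 in both. In the deletion the glutathione importer pgt1 rose (0.57 ± 0.09) and the peroxidase gpx1 fell (-0.54 ± 0.04). In wild type gst2 (-0.99 ± 0.15) and the glutamyl transpeptidase ggt1 (-0.52 ± 0.08) fell. The gst2 control mean was 4.67 in the deletion against 8.82 in wild type, and its change in the deletion was -0.03 ± 0.15 (adjusted p = 0.856).

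The genes of iron regulation and uptake were listed for the link of abc3 with iron. Of 16 measured, the pap1 deletion had 5 that rose, 7 that fell and 4 not past the threshold (median 0.05). Wild type had 4 that rose, 10 that fell and 2 not past the threshold (median -0.41). Those past the threshold were 75% in the deletion, beside 62.4% of all genes, and 87.5% in wild type, beside 80.2%. In the deletion the largest changes were rises of the glutaredoxin grx4 (1.17 ± 0.05), the iron reductase frp1 (1.09 ± 0.06) and the siderophore transporter str1 (1.07 ± 0.08). Subunits of the CCAAT-binding complex fell most in wild type, namely the iron-shortage repressor php4 (-1.66 ± 0.07), php3 (-1.37 ± 0.06) and php5 (-1.34 ± 0.07). The message of fep1, the repressor of abc3, fell by 0.70 ± 0.07 in the deletion and by 0.92 ± 0.07 in wild type. It was named for that link after its values had been seen, and a part of fep1 in the abc3 rise was not tested. Other genes of the list went both ways in wild type. There fip1 (-0.88), sib2 (-0.88) and fio1 (-0.43) fell, and frp1 (1.25), str1 (0.27) and str3 (0.62) rose. The genes str2 (-0.08) and sib1 (0.07) did not pass. The vacuolar iron transporter pcl1 fell in both strains (-0.21 ± 0.05 in the deletion and -0.61 ± 0.05 in wild type), where abc3 rose in both.

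Other vacuolar genes passed about as often as all genes did. Of 31 measured, the pap1 deletion had 13 that rose, 7 that fell and 11 not past the threshold (median 0.12). Wild type had 13 that rose, 12 that fell and 6 not past the threshold (median 0.07). These are 64.5% of the list in the deletion, against 62.4% of all genes, and 80.6% in wild type, against 80.2%. In the deletion the amino acid transporter avt5 (0.71 ± 0.11) and the proton pump subunits vma7 (0.69 ± 0.04) and vma5 (0.69 ± 0.06) led the rises. In wild type the calcium exchanger vcx1 (-2.04 ± 0.06) fell by more than abc2, vma7 rose (1.497 ± 0.04) and the fusion GTPase ypt7 fell (-1.26 ± 0.05). The vcx1 and abc2 responses were both smaller in the deletion, with a strain difference of 1.59 for vcx1 and 1.25 for abc2. Of the list 64.5% passed for the difference in response, 13 positive and 7 negative, where 59.1% of all genes passed. As for the members, the index was higher in the treated arrays of both strains, and its part in these list counts was not tested.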

How the data were processed

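The deposited values were log2 expression per probe set, and the submitters' processing notes name RMA as the authors' summary method. The version, and whether all 8 arrays were processed together, are not given in the sources used here. Of 10928 probe sets, 2914 carried 1 S. pombe gene in GEO's platform annotation, and symbols were updated by gene number through the RefSeq table of assembly ASM294v3. For 14 genes with several probe sets the highest mean was kept, leaving 2896 genes. Background was the 95th percentile of S. cerevisiae probe set means (3.41), and all 4 members lay above it. Values were fitted in R 4.3.3 with limma 3.58.1: 1 mean per group over 8 arrays, eBayes without trend, 4 residual and 3.07 prior degrees of freedom. SE and intervals are limma's moderated ones.

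The members, lists and tests were chosen with earlier results of these data known. Apart from the members, named genes were pap1, coq8, the 3 nearest in pattern to each member and all other ABC proteins listed. Also named were the 3 largest changes past the threshold per list and strain. Further iron genes, fep1 and pcl1 among them, were added after values were seen. The listed arb1 and arb2 were dropped after values were seen, because in S. pombe they are Argonaute-binding proteins. Replicate numbers were not used to pair the samples in the main fit. For arrays of the same number, deviations from the group mean correlated at -0.256 between pap1 deletion treated and control arrays. For other pairs of groups the correlations lay between -0.082 and 0.059. With so few arrays per group, these correlations cannot show whether arrays of the same number came from the same flask. Whether the samples were paired was therefore not settled. Sequences were not used here, so no motifs and no list by protein length are reported.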

Additional observations from a re-analysis of the deposited data

Results flagged for a closer look

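The response to detaNONOate differed between the strains for 3 of 4 members, by limma's test of the difference itself (response in the pap1 deletion minus response in wild type, log2). Of all genes 59.1% passed the same test. For abc2 the difference was 1.25, with changes of -0.42 in the deletion and -1.67 in wild type. For abc3 it was -0.30, with rises of 0.66 in the deletion and 0.96 in wild type. For abc1 it was -0.28, with a change of 0.07 in the deletion that did not pass and a rise of 0.35 in wild type. The abc2 difference kept its call without any single array (1.14 to 1.36), whereas the abc1 and abc3 calls were lost without several single arrays. The index of signal balance was 0.71 lower in treated deletion than in treated wild type arrays and 0.31 higher in control deletion than in control wild type arrays, and the fit with the index holds no term for a difference in response, so its part was not tested.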

How the results depend on the processing

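The treatment differences of all 4 members in wild type kept their direction and call under every alternative except the fit with the 3' to 5' index, and likewise abc2, abc3 and abc4 in the pap1 deletion. With the index as a covariate, 1 member and 821 genes passed for treatment, abc1 stood at -0.20 and abc2 at 0.68, and abc4 was the member that passed. For the strain effect common to both treatments 1 member and 696 genes passed, with abc2 at 0.16 (turned in sign against control cells) and abc1 at 0.11 (turned against treated cells). Between strains in control cells, 1 member passed as reported, 3 with centred arrays, 3 after quantile normalization and 2 with an intensity trend. The genes passing with them, of 2896, numbered 503, 584, 584 and 733 in that order. With the replicate block 0 members and 366 genes passed. Members numbered 3 with the 4 control arrays alone and 0 with all probe sets fitted. Leaving out 1 array gave 0 to 2 members there and 108 to 660 genes, against 503 with all arrays, and abc3 between -0.047 and 0.0425. The genes passing there numbered 787 of 2896 with the control arrays alone. When all 10928 probe sets were fitted, 147 of them passed there. For abc3 the control difference was 0.017 with centred arrays (adjusted p = 0.882), and for abc4 the difference in response was -0.0674 after quantile normalization (adjusted p = 0.348).

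With all 10928 probe sets fitted, 2601 of them of S. cerevisiae and 5390 with no gene, 4270 passed in wild type. The main fit had 2323 of 2896 genes there. Between treated strains 3002 of the 10928 probe sets passed, against 1905 of the 2896 genes. For the difference in response 1 member, abc2, passed. That count ranged from 1 to 3 members when 1 array was left out. The replicate block ended the abc4 call in control cells (0.16, adjusted p = 0.085), and as a block within strain the abc3 call for the difference in response (-0.30, adjusted p = 0.0639). Crossing the numbers in the deletion, chosen after seeing the data, left 3 members passing in the deletion, 4 in wild type and 3 for the difference. The causes of these shifts were not tested.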
